A study of Mus musculus with 12 samples.

Results

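*Abca1*, *Cyp7b1*, *Lipg* and *Cav1* are 4 genes of cholesterol and lipid handling, out of 124 NF-κB-dependent genes for which the authors deposited values. Other lipid genes of the list are described further on. The 4 were picked by symbol, as the rows of the 3 treatment tables with these names, and all 4 had a value in every group. Peritoneal macrophages of *N4bp1*+/+ and *N4bp1*-/- mice were sequenced to ask how loss of N4BP1, an inhibitor of NF-κB, bears on transcript levels before and after stimulation. The 6 groups were *N4bp1*+/+ and *N4bp1*-/- cells left unstimulated, *N4bp1*+/+ and *N4bp1*-/- cells given R848 (20 ng/ml), a TLR7 ligand, for 2 h, and *N4bp1*+/+ and *N4bp1*-/- cells given LPS (10 ng/ml), a TLR4 ligand, for 2 h. Each group held the cells of 2 mice, which makes 12 libraries. All mice were on the C57BL/6J background, and the study's methods describe its animals as young adults of both sexes. The *N4bp1*-/- mice carry a small CRISPR-Cas9 deletion in a coding exon, in every cell of the animal. The macrophages had been drawn into the peritoneal cavity with thioglycollate, an irritant, and recovered by lavage, and the experiment was performed once.

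A macrophage takes up cholesterol with lipoproteins and dead cells and cannot break down its ring structure, so it stores, modifies or exports it. *Abca1* encodes a membrane transporter that hands cholesterol and phospholipid to apolipoprotein A-I, the first step of export to HDL. *Cyp7b1* encodes a hydroxylase that acts on oxysterols, which are signals made from cholesterol. *Lipg* encodes endothelial lipase, a secreted phospholipase that acts on HDL. *Cav1* encodes caveolin-1, a cholesterol-binding coat protein of caveolae, the small pits of the plasma membrane.

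The values are the authors' mean FPKM over both mice, that is the fragments of a gene relative to its transcript length and to all mapped fragments of a library. No values of single mice were used here, so no mean has an error, no test was made between groups, and the depth of the libraries is unknown. Every difference given is therefore a description of 2 means, and a ratio over 2-fold is used only to count genes. The genotypes were compared by the authors within each treatment, in separate tables. The scaling between the tables, and how the list was drawn up, was not given in the sources used here. Levels set across treatments therefore only describe the data. The unstimulated libraries have codes with a prefix of their own, so the stimulus cannot be told apart from what that prefix marks. *N4bp1* itself is not among the listed genes. Of 6 macrophage markers, *Spi1* and *Tfec* had values. *Spi1*, which encodes the myeloid transcription factor PU.1, lay between 154 and 388 FPKM over the 6 groups.

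The files give the loci in mm10, the same assembly as GRCm38. *Abca1* lies on chromosome 4 (53030787 to 53159895, minus strand), *Cyp7b1* on chromosome 3 (18071950 to 18243338, minus strand) and *Lipg* on chromosome 18 (74939322 to 74961263, minus strand), and each of these 3 loci has the same ends as the gene in GENCODE M21. The locus deposited for *Cav1* is wider than the gene. It covers 187854 bases of chromosome 6 (17197751 to 17385604), whereas the annotated gene has 35118 (17306335 to 17341452, plus strand). The same stretch holds 4 other annotated genes, among them *Cav2*, which encodes the caveolin-1 partner caveolin-2, and *Gm15581*, an antisense transcript on the minus strand that runs across *Cav1*. The kit was stranded, but whether the authors' counting used strand was not given, and the row named *Cav1* may also hold fragments of these neighbours.

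RefSeq promoter windows, which run from 250 bases before to 50 bases after an annotated start, were matched by symbol for 2 of the 4 genes, *Abca1* and *Cav1*. They are shown because both genes are on a list of NF-κB-dependent genes and had higher means after stimulation. The capitals mark TATAAA, or TTTATA where the match is on the other strand.

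*Abca1* promoter, GRCm38.p6 chr4:53159846-53160145, minus strand: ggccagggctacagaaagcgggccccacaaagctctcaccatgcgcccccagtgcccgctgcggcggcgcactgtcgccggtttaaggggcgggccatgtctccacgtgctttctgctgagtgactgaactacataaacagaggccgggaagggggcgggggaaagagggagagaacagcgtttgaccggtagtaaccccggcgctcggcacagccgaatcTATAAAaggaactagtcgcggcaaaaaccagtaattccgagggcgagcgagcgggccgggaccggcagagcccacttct
*Cav1* promoter, GRCm38.p6 chr6:17306085-17306384, plus strand: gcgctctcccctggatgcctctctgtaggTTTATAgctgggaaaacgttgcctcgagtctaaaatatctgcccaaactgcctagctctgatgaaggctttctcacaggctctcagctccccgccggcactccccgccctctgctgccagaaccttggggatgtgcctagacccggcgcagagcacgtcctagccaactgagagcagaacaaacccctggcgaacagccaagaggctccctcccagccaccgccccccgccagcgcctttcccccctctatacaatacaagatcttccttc

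The *Abca1* window has TATAAA at positions −29 to −24 from the start, while the match in the *Cav1* window lies at −221 to −216, on the opposite strand. On either strand, TATAAA is in 13.6% of the 32851 mouse windows of this length. The NF-κB consensus, searched on both strands, is in 8.46% of these windows and the AP-1 motif TGANTCA in 7.81%. Of the 102 windows of listed genes, 26.5% hold the NF-κB consensus, 24.5% the AP-1 motif and 23.5% TATAAA. The 2 windows shown and a second *Cav1* window hold no match to either, and no motif searched overlapped another. This describes letters in these windows only.

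The cholesterol exporter *Abca1* had the narrowest range of ratios between the genotypes among the 4 genes. Its mean FPKM was 26.4 in *N4bp1*+/+ and 31.0 in *N4bp1*-/- cells without stimulus, 71.8 and 64.8 after R848, and 42.9 and 49.4 after LPS. The 6 means thus fell into 3 pairs by treatment, with both R848 means at the top, both LPS means in the middle and both unstimulated means at the bottom. The log2 ratio of *N4bp1*-/- to *N4bp1*+/+ was 0.24 in unstimulated, −0.15 in R848-treated and 0.20 in LPS-treated cells. In *N4bp1*+/+ cells the R848 mean was 2.72-fold and the LPS mean 1.63-fold the unstimulated one. In *N4bp1*-/- cells the same ratios were 2.09 and 1.59. These are small ratios for this list of genes: 116 of the other genes had a larger one after R848 in *N4bp1*+/+ cells and 118 after LPS. *Abca1* was also higher after R848 than after LPS, 1.67-fold in *N4bp1*+/+ and 1.31-fold in *N4bp1*-/- cells.

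*Cyp7b1*, the oxysterol hydroxylase, was higher in *N4bp1*-/- cells under each treatment. Its mean FPKM was 0.427 in *N4bp1*+/+ and 1.70 in *N4bp1*-/- cells without stimulus, 1.54 and 3.86 after R848, and 1.25 and 2.81 after LPS. All 3 *N4bp1*-/- means lay above all 3 *N4bp1*+/+ means. The ratio between the genotypes was 3.99-fold in unstimulated, 2.51-fold in R848-treated and 2.24-fold in LPS-treated cells, or log2 ratios of 2.00, 1.33 and 1.16. With a pseudocount of 1 FPKM these log2 ratios were 0.92, 0.94 and 0.76, all under 2-fold. The *N4bp1*-/- mean without stimulus was 1.11 times that of R848-treated and 1.36 times that of LPS-treated *N4bp1*+/+ cells. An unstimulated *N4bp1*-/- mean above the R848-treated *N4bp1*+/+ mean was seen in 8.06% of the 124 genes, and above the LPS-treated mean in 12.1%. Of the 4 lipid genes, *Cyp7b1* alone was on that side, in both cases. The stimulated means of *Cyp7b1* were higher than the unstimulated ones by 3.61-fold for R848 and 2.93-fold for LPS in *N4bp1*+/+ cells, and by 2.27-fold and 1.65-fold in *N4bp1*-/- cells. *Cyp7b1* was low throughout, with no mean over 3.86 FPKM.

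**Figure D1:**
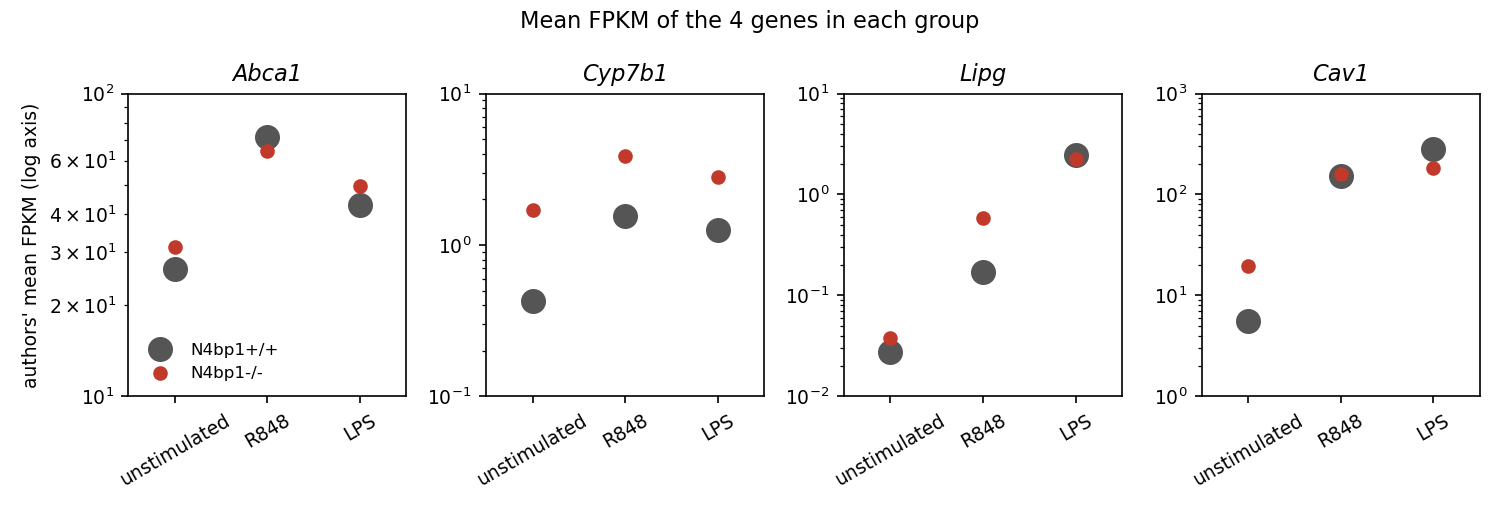
Authors' mean FPKM (vertical log axis, a separate range in each panel) of *Abca1*, *Cyp7b1*, *Lipg* and *Cav1* in unstimulated, R848-treated and LPS-treated cells, with large grey points for N4bp1+/+ and small red points for N4bp1-/-. Each point is 1 mean with no error; the genotypes lie apart at each treatment for *Cyp7b1*, without stimulus for *Cav1* (5.59 and 19.4) and after R848 for *Lipg* (0.170 and 0.590).

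The lipase gene *Lipg* was the lowest of the 4 without stimulus and after R848, and its highest means were those after LPS. Its mean FPKM was 0.0277 in *N4bp1*+/+ and 0.0378 in *N4bp1*-/- cells without stimulus, 0.170 and 0.590 after R848, and 2.44 and 2.23 after LPS. Only the LPS means exceeded 1 FPKM, and the number of fragments behind the lower values is unknown. In *N4bp1*+/+ cells the LPS mean was 88.0-fold above the unstimulated one and the R848 mean 6.15-fold above it. In *N4bp1*-/- cells these ratios were 58.9 and 15.6. These ratios rest on unstimulated means near 0. With a pseudocount of 1 FPKM the log2 ratio to no stimulus in *N4bp1*+/+ cells was 1.74 in place of 6.46 for LPS and 0.19 in place of 2.62 for R848, and in *N4bp1*-/- cells 1.64 in place of 5.88 and 0.62 in place of 3.96. With 0.1 FPKM the *N4bp1*+/+ values were 4.31 and 1.08. The genotypes stood apart after R848, where the *N4bp1*-/- mean was 3.46-fold higher (log2 ratio 1.79), with log2 ratios of 0.45 without stimulus and −0.13 after LPS. With a pseudocount of 1 FPKM the log2 ratio after R848 was 0.44. LPS gave a higher mean than R848 by 14.3-fold in *N4bp1*+/+ and by 3.78-fold in *N4bp1*-/- cells. The first of these ratios was exceeded by 7 of the 124 genes. As log2 ratios of LPS to R848 the 2 values were 3.84 and 1.92, and with a pseudocount of 1 FPKM 1.55 and 1.02.

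*Cav1*, the caveolin-1 gene, was abundant after stimulation and differed in direction between treatments. Its mean FPKM was 5.59 in *N4bp1*+/+ and 19.4 in *N4bp1*-/- cells without stimulus, 150.7 and 160.5 after R848, and 279.6 and 182.0 after LPS. Without stimulus the *N4bp1*-/- mean was 3.47-fold higher, a log2 ratio of 1.80. After R848 the 2 means were close, with a log2 ratio of 0.09. After LPS the *N4bp1*-/- mean was the lower one, at 0.651 of the *N4bp1*+/+ mean, a log2 ratio of −0.62. In FPKM, *N4bp1*-/- cells were 13.8 above *N4bp1*+/+ cells without stimulus and 9.73 above after R848, and after LPS the difference was −97.6. The *N4bp1*+/+ mean after R848 was 27.0 times and that after LPS 50.0 times the unstimulated one. In *N4bp1*-/- cells, which started from a higher mean, these ratios were 8.27 and 9.38. The neighbours within the deposited locus apply to each of these values.

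Without stimulus, 2 of the 4 genes, *Cyp7b1* and *Cav1*, were over 2-fold higher in *N4bp1*-/- cells, against 35.0% of the 123 listed genes above 0 in both genotypes, and 0 of the 4 were over 2-fold lower, against 0.0%. After R848 the 2 genes over 2-fold higher were *Cyp7b1* and *Lipg*, against 25.0% of 124 genes, and 0 were over 2-fold lower, against 1.61%. After LPS it was *Cyp7b1*, against 16.1%, with 0 lower, against 4.84%. With 4 genes, these counts do not set the group apart from the list. The median log2 ratio of the 4 genes was 1.12 without stimulus, 0.71 after R848 and 0.04 after LPS, beside 0.53, 0.28 and −0.09 for the listed genes. Relative to these medians, *Abca1* lay at −0.29 without stimulus, −0.43 after R848 and 0.30 after LPS. On the same scale *Cyp7b1* stood at 1.47, 1.05 and 1.26, *Lipg* at −0.08, 1.51 and −0.04, and *Cav1* at 1.27, −0.19 and −0.53. The sign thus turned under this centring for *Abca1* and *Lipg* without stimulus and for *Cav1* after R848.

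**Figure D2:**
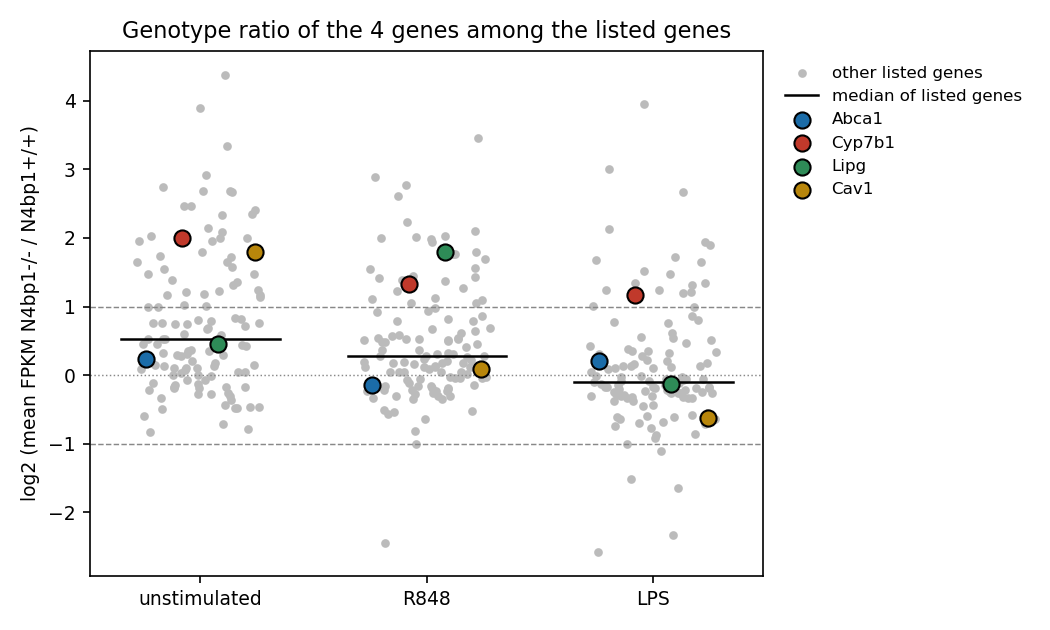
Log2 ratio of mean FPKM, N4bp1-/- over N4bp1+/+ cells, (vertical axis) for each treatment; grey points are other listed genes, large coloured points the 4 lipid genes, solid lines the median of the listed genes and dashed lines 2-fold. *Cyp7b1* lies above the 2-fold line under each treatment, at 2.00, 1.33 and 1.16, *Cav1* without stimulus and *Lipg* after R848.

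The distance between the genotypes was set side by side for the treatments, as a difference of log2 ratios of the authors' means. For R848 against no stimulus the difference in the ratio of *N4bp1*-/- to *N4bp1*+/+ was −0.38 for *Abca1*, −0.67 for *Cyp7b1* and −1.71 for *Cav1*, with the smaller ratio after R848, and 1.34 for *Lipg*, with the larger ratio after R848. The median difference over 123 genes was −0.19. After LPS against no stimulus the differences were −0.03 for *Abca1*, −0.83 for *Cyp7b1*, −0.58 for *Lipg* and −2.42 for *Cav1*, beside a median of −0.51. *Cav1* was near the low end in both, with 8 and 7 genes below it, and *Lipg* near the high end in the first, with 3 genes above it. Between the stimuli, the ratio of *Lipg* was larger after R848 than after LPS by 1.92 and that of *Cav1* by 0.71, while those of *Cyp7b1* (0.16) and *Abca1* (−0.35) lay below the median of 0.27. All of these differences share groups with each other, and none could be tested. The differences and rank of *Lipg* were taken with no pseudocount and involve means under 1 FPKM. Its log2 genotype ratios with a pseudocount of 1 FPKM were 0.01 without stimulus, 0.44 after R848 and −0.09 after LPS. Those of *Cyp7b1*, with an unstimulated *N4bp1*+/+ mean under 1 FPKM, were then 0.92, 0.94 and 0.76. With that pseudocount the ratio of *Cyp7b1* was not smaller after R848 than without stimulus.

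All 4 genes were over 2-fold higher after R848 than in unstimulated cells in the *N4bp1*+/+ groups, against 99.2% of the listed genes, and in *N4bp1*-/- cells, against 95.9%. After LPS it was 3 of the 4 in *N4bp1*+/+ cells, against 91.1%, and 2 of the 4 in *N4bp1*-/- cells, against 86.2%. *Abca1* was under 2-fold in both genotypes and *Cyp7b1* in *N4bp1*-/- cells. Since the listed genes are themselves NF-κB-dependent genes, these shares cannot set the lipid genes apart. In *N4bp1*+/+ cells the median listed gene had a log2 ratio of 3.16 for R848 and 3.73 for LPS. *Abca1* and *Cyp7b1* were below both medians and *Cav1* was above both, whereas *Lipg* was below the first (2.62) and above the second (6.46). Between LPS and R848, *Lipg* was over 2-fold higher after LPS in *N4bp1*+/+ cells, against 25.8% of genes, and in *N4bp1*-/- cells, against 16.9%. None of the 4 was over 2-fold lower after LPS than after R848 in *N4bp1*+/+ cells, against 8.06%, or in *N4bp1*-/- cells, against 9.68%.

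**Figure D3:**
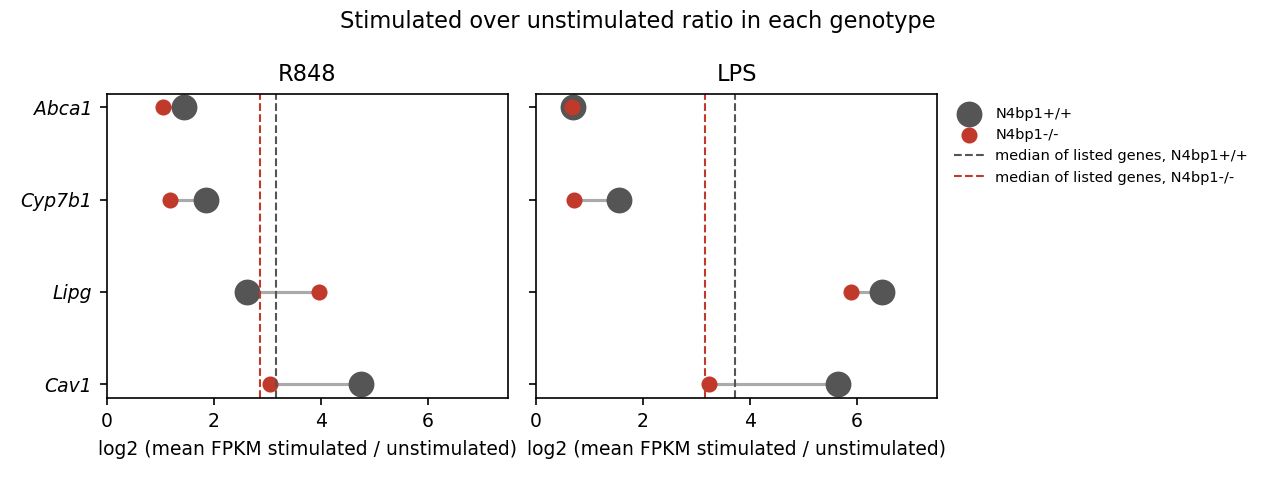
Log2 ratio of stimulated to unstimulated mean FPKM (horizontal axis) for each lipid gene in N4bp1+/+ (large grey points) and N4bp1-/- (small red points) cells, after R848 and after LPS; dashed lines are the medians of the listed genes. The points of *Cav1* lie furthest apart, at 4.75 and 3.05 after R848 and at 5.65 and 3.23 after LPS, and *Lipg* after R848 is the case with the larger ratio in N4bp1-/- cells.

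Over the 6 group means the 4 genes were unlike each other to differing degrees. Pearson's r of log2 FPKM was highest between *Lipg* and *Cav1* (0.894) and lowest between *Abca1* and *Lipg* (0.544). The other listed genes with the pattern most like that of *Abca1* were the immediate early gene *Ier2* (0.977), the transcription factor gene *Cebpd* (0.970) and the locus that joins *Ahctf1* and *Kif28* (0.961). Those most like *Cyp7b1* were the chemokine gene *Cxcl5* (0.991), the matrix gene *Thbs1* (0.987) and the complement gene *C3* (0.980). For *Lipg* they were the TNF family ligand *Tnfsf15* (0.994), the co-stimulatory ligand *Cd80* (0.994) and the cyclin gene *Ccnd2* (0.973). For *Cav1* they were the adhesion gene *Vcam1* (0.995), the receptor gene *Tlr2* (0.994) and the IκB gene *Nfkbie* (0.990). These are the highest values among the 123 genes above 0 in every group, over 6 points that all share the step from unstimulated to stimulated cells, and they carry no p.

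Other lipid genes were drawn from lists for cholesterol efflux, oxysterols, lipases, lipoprotein uptake, caveolae, lipid mediators and sterol synthesis. Of the 34 genes on them, 9 had values, and 5 of these are not among the 4 genes above. Genes of sterol synthesis, the LDL receptor and the LXR receptors were not analysed here. *Olr1*, which encodes the scavenger receptor LOX-1 for oxidized LDL, had 3.75 FPKM in *N4bp1*+/+ and 8.43 in *N4bp1*-/- cells without stimulus, 109 and 136 after R848, and 69.8 and 89.0 after LPS. It was thus over 2-fold higher in *N4bp1*-/- cells without stimulus, with log2 ratios of 1.17, 0.32 and 0.35 over the 3 treatments. *Plcd1*, which encodes a phospholipase C, had log2 ratios of 0.42, 0.04 and −0.02 and did not exceed 4.64 FPKM.

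The list for prostaglandins and platelet-activating factor, lipid mediators made from membrane phospholipid, had values for 3 of its 5 genes. The ratio between the genotypes for the prostaglandin E synthase gene *Ptges* was 3.14-fold without stimulus, 4.10-fold after R848 and 4.37-fold after LPS. For the cyclooxygenase gene *Ptgs2* it was 2.93, 2.58 and 1.47. *Ptafr*, the receptor gene for platelet-activating factor, had the lower mean in *N4bp1*-/- cells under each treatment, with log2 ratios of −0.46, −0.53 and −0.58. Of the 9 lipid genes with values, 5 were over 2-fold higher in *N4bp1*-/- cells without stimulus, 4 after R848 and 2 after LPS, against 35.0%, 25.0% and 16.1% of the listed genes. None of the 9 was over 2-fold lower, against 0.0%, 1.61% and 4.84%. *Cyp7b1* and *Ptges* were over 2-fold higher under each treatment, *Cyp7b1* only without a pseudocount of 1 FPKM. Other listed genes were too, among them *C3*, *Cxcl5* and *Thbs1*, and the share of the list was not counted. With no pseudocount the ratio of *Cyp7b1* was largest without stimulus and that of *Ptges* after LPS. With 1 FPKM the log2 ratios of *Cyp7b1* were 0.92 without stimulus, 0.94 after R848 and 0.76 after LPS, so its order was not kept.

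**Figure D4:**
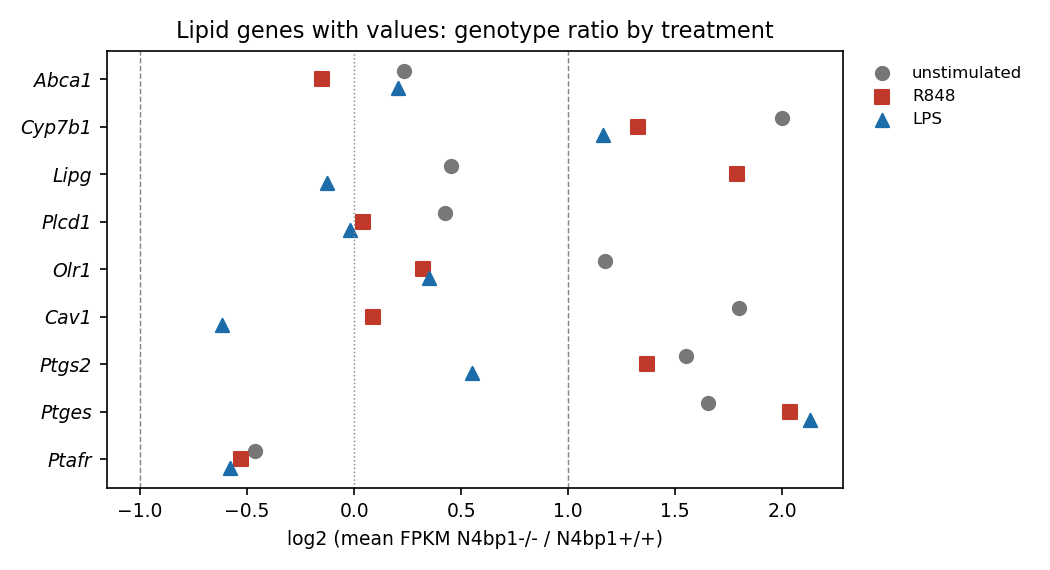
Log2 ratio of mean FPKM, N4bp1-/- over N4bp1+/+ cells, (horizontal axis) for the 9 lipid genes with values, with circles for unstimulated, squares for R848-treated and triangles for LPS-treated cells; dashed lines are 2-fold. *Cyp7b1* and *Ptges* lie right of 2-fold under each treatment and *Ptafr* lies left of 0.

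*Cav1* and *Lipg* are also expressed by endothelial cells, and in bulk RNA fewer cells of a type and less RNA per cell cannot be told apart. Of 38 cell type markers, 14 had values, all of them as genes of the NF-κB-dependent list. Their levels can thus differ with stimulus and genotype at the same cell content, which they cannot report. In *N4bp1*+/+ cells the log2 ratio of LPS to no stimulus was 7.51 for the stromal marker *Vcam1*. It was 10.1 for the endothelial marker *Edn1*. For fibroblasts and other stromal cells the markers with values were 2 of 7, *Sox9* and *Vcam1*. Their summed level was 0.547 FPKM in *N4bp1*+/+ and 3.16 in *N4bp1*-/- cells without stimulus. It was 40.4 and 50.3 after R848, and 87.1 and 85.4 after LPS. *Vcam1* made up most of that sum, with 40.2 and 48.8 FPKM after R848 and 86.9 and 83.9 after LPS. The ratio of *N4bp1*-/- to *N4bp1*+/+ for *Vcam1* was 4.43 without stimulus, 1.21 after R848 and 0.966 after LPS. Like *Cyp7b1*, 3 of the 14 markers, of different cell types, were over 2-fold higher in *N4bp1*-/- cells under each treatment. So were other listed genes, among them *C3*, *Cxcl5* and *Thbs1*, and the share of the list was not counted. The first of the 3 markers was *Sox9*, 14.8-fold higher without stimulus, 6.08-fold after R848 and 6.38-fold after LPS. The others were the neutrophil and monocyte receptor gene *Trem1* (7.56, 10.9 and 15.5) and the dendritic cell chemokine receptor gene *Ccr7* (20.8, 7.39 and 8.04). Without stimulus the *N4bp1*+/+ means of *Sox9*, *Trem1* and *Ccr7* were 0.0713, 0.0271 and 0.0452 FPKM. Their *N4bp1*-/- means were 1.06, 0.205 and 0.942. The unstimulated ratios thus rest on *N4bp1*+/+ means near 0. After R848 and LPS the *N4bp1*+/+ means were also low, at 0.255 and 0.234 FPKM for *Sox9*. They were 0.548 and 0.160 for *Trem1*, and 0.366 and 0.215 for *Ccr7*. The stimulated ratios of these markers thus rest on *N4bp1*+/+ means under 1 FPKM. For endothelial cells 1 of 5 markers had values, *Edn1*, with log2 ratios of 0.75, 1.05 and −1.11 between the genotypes over the 3 treatments. The same ratios were 1.80, 0.09 and −0.62 for *Cav1* and 0.45, 1.79 and −0.13 for *Lipg*. After LPS the *N4bp1*-/- mean was lower for the macrophage marker *Tfec* (log2 ratio −1.01) and the dendritic cell markers *Ccl17* (−2.32), *Ccl22* (−1.65) and *Cd83* (−0.75). It was higher for the dendritic cell marker *Ccr7* (3.01). A lower *N4bp1*-/- mean after LPS was seen in 72 of the 124 listed genes. The summed level of 3 of 6 neutrophil markers was 3.58 and 6.11 FPKM without stimulus, 36.6 and 75.5 after R848, and 14.7 and 35.9 after LPS. Besides *Trem1* these were *Lcn2* and *Mmp9*. The ratio of *N4bp1*-/- to *N4bp1*+/+ for *Lcn2* was 0.712 without stimulus, 2.41 after R848 and 2.28 after LPS. For *Mmp9* it was 3.32, 1.07 and 2.36. The summed level of 4 of 6 dendritic cell markers was 32.9 and 25.8, 473 and 322, and 536 and 308. *Cd83* made up most of that sum. Without stimulus the other 3, *Ccr7*, *Ccl17* (2.32-fold) and *Ccl22* (5.53-fold), were higher in *N4bp1*-/- cells. The unstimulated *N4bp1*+/+ means of these 3 were at most 0.182 FPKM. The summed level of 2 of 5 lymphocyte markers lay at or under 0.888 FPKM in each group. The 2 macrophage markers summed to 174 and 159, 438 and 367, and 368 and 308. None of the markers with values was at 0, and the part of other cells in the values of the lipid genes was not tested.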

How the data were processed

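Stranded mRNA libraries of 12 macrophage cultures were sequenced. Per the submitters' processing notes, the build was mm10 and the tools were Cufflinks 2.1.1, TopHat2 2.0.10 and CASAVA 1.8.2. Annotation and read filters were not given in the sources used here. For each of 124 genes, the authors deposited FPKM as a single mean over 2 mice in each group. All 744 values were the same in the authors' summary sheet. The deposited fold changes, test statistics, p-values and q-values of the authors' own comparisons were not used, so no test was made. Libraries were grouped by genotype and treatment from the labels. Log2 ratios of mean FPKM were computed with no pseudocount and no filter, after a check on simulated data. A gene at 0 in a group was left out of ratios with that group. Alternatives were a fold minimum of 1.5, pseudocounts of 0.1 and 1 FPKM, a minimum of 1 FPKM, and centring on the median of the listed genes. The 4 genes and all lists were chosen with earlier results of these data known. Named were the 4 genes, every gene of the lipid lists with values and the 3 genes of most similar pattern for each. Markers named are those of the marker lists. Python 3.11.15, pandas 2.3.3, numpy 2.4.6 and matplotlib 3.10.9 were used.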

Additional observations from a re-analysis of the deposited data

How the results depend on the processing

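The number of the 4 genes over the fold minimum, in either direction, was compared over 9 comparisons. Changes of up to 1.5 times were taken as the same and are not listed. For LPS against no stimulus in *N4bp1*+/+ cells, for example, the 3 genes became 2 with a pseudocount of 1 FPKM. They became 4 with a fold minimum of 1.5. With a pseudocount of 1 FPKM the number was 1 in place of 2 between the genotypes without stimulus, 0 in place of 2 after R848 and 0 in place of 1 after LPS, and 2 in place of 4 for R848 against no stimulus in each genotype. With a minimum of 1 FPKM it was 1 in place of 2 after R848, since *Lipg* was left out. With a fold minimum of 1.5 it was 2 in place of 1 between the genotypes after LPS, 4 in place of 2 for LPS against no stimulus in *N4bp1*-/- cells, and 3 in place of 1 for LPS against R848 in *N4bp1*+/+ cells. The pseudocount of 0.1 FPKM and centring left all 9 counts within 1.5 times, but under centring *Abca1* and *Cyp7b1* were past it on the lower side for each stimulus in both genotypes. Centred on the median of the listed genes, the log2 ratio of R848 to no stimulus turned to −1.71 for *Abca1*, −1.31 for *Cyp7b1* and −0.54 for *Lipg* in *N4bp1*+/+ cells, and to −1.80 for *Abca1* and −1.68 for *Cyp7b1* in *N4bp1*-/- cells. For LPS it turned to −3.02 for *Abca1* and −2.17 for *Cyp7b1* in *N4bp1*+/+ cells, and to −2.49 and −2.44 in *N4bp1*-/- cells. The centring subtracts a median of genes that are mostly higher after stimulation. Leaving out single mice was not possible with group means. No paired analysis was possible because the tables hold 1 mean per group.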
